A study of Arabidopsis thaliana with 8 samples.

Results

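AT4G31530 and AT1G01500 are Arabidopsis thaliana genes whose products carry the name of a nucleotide-binding enzyme fold. AT4G31530 is named for the Rossmann-fold NAD(P)-binding family and AT1G01500 for the erythronate-4-phosphate dehydrogenase family. They were taken as the 2 probes that the platform annotation pairs with 1 of these genes and no other, among 692 probes with a single gene and 3439 probes in all. Both genes were chosen by the intensities of the petc and WT arrays themselves, for the size of the difference between these groups, and AT4G31530 also for the brightness of its probe. Their petc and WT levels and differences are therefore given as a description, with no test.

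The Rossmann fold is a protein domain that binds the dinucleotide cofactors NAD or NADP, the electron carriers of most cellular oxidations and reductions. In chloroplasts, light-driven electron transport passes from photosystem II through the cytochrome b6f complex to photosystem I, and its usual end product is NADPH, which reductases and dehydrogenases of the plastid then use. Erythronate-4-phosphate dehydrogenase is known from Escherichia coli as an enzyme of vitamin B6 synthesis, and plants make that vitamin by another route. A family name alone therefore gives neither the substrate nor the place in the cell of the plant protein.

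Total RNA of 8 samples was measured on expression arrays, 4 from WT plants and 4 from the petc mutant, both in the ecotype Landsberg. The petc plants lack the Rieske iron-sulfur protein, the cytochrome b6f subunit that takes electrons from plastoquinol. The labels name no allele, tissue, plant age or growth condition. Nothing says whether the samples of a group came from separate plants, so p-values here cover only the spread from sample to sample, which could be technical. Samples carry the numbers 1 to 4 in each group, and within a group number 1 was closest to 2 and number 3 to 4 (Spearman's rho across probes 0.975 to 0.988 within such a pair and 0.90 to 0.922 between the pairs of a group). This split into sets comes from the values and not from the labels.

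Deposited intensities are on a linear scale of arbitrary unit, with a ceiling at 100 that 2 to 4 probes per sample reached and with 2978 to 3009 probes per sample above 0. Both genes were above 0 and below the ceiling in all 8 samples, and both passed the filter of at least 3 values above 0 per group that left 2947 probes. Of 9 markers of green leaf, 4 were measured, PSAN, LHB1B2, PRK and PSBW. Their summed intensity was 52.7 to 59.6 in WT and 52.1 to 59.3 in petc. A sum does not show whether each marker was alike in both groups. Of the markers of root, flower or pollen, and seed, 0 were on a single-gene probe, so the tissue could not be checked through them. In such bulk samples, fewer cells of a type and less RNA per cell cannot be told apart.

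AT4G31530 was brighter in every petc sample than in every WT sample. Its deposited intensity was 41.3, 38.7, 26.1 and 26.5 in WT replicates 1 to 4, and 67.5, 64.8, 85.3 and 86.3 in petc replicates 1 to 4. The groups did not overlap, which held for 32.0% of the tested probes, and 23.5 units lay between the highest WT and the lowest petc value. WT averaged 33.1 ± 7.96 and petc 76.0 ± 11.4 (SD, n = 4 each). The fitted difference was 1.35 ± 0.20 on the normalised log2 scale (SE, n = 4 per group). In the deposited values, petc exceeded WT 1.63-fold for number 1, 1.67-fold for number 2, 3.27-fold for number 3 and 3.25-fold for number 4.

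The AT4G31530 probe was at the bright end of the array, where rank is a property of the probe and not a comparison of transcript levels between genes. Among all probes it ranked 12, 13, 20 and 20 in the WT samples and 6, 6, 3 and 3 in the petc samples. Among single-gene probes it was the brightest in all 4 petc samples and ranked 2, 2, 3 and 4 in WT. In petc replicates 3 and 4 the only probes above it were those at the ceiling. Its share of the summed intensity of all probes was 0.789% to 1.24% in WT and 1.93% to 2.53% in petc.

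AT1G01500 went the other way, from a dimmer probe. Its deposited intensity was 0.287, 0.330, 0.420 and 0.473 in WT replicates 1 to 4, and 0.152, 0.132, 0.144 and 0.140 in petc replicates 1 to 4. All petc values lay below all WT values, with a gap of 0.135 between the groups. Groups without overlap, in either direction, were seen for 32.0% of the tested probes. WT averaged 0.378 ± 0.0843 and petc 0.142 ± 0.00845 (SD, n = 4 each), and the fitted difference was -1.47 ± 0.16 on the normalised log2 scale (SE). By sample number, WT exceeded petc 1.88-fold, 2.50-fold, 2.91-fold and 3.38-fold for numbers 1 to 4. The probe sat between percentiles 37.4 and 58.3 of the values above 0 in WT and between 12.1 and 16.3 in petc. With an offset of 0.1 added before log2, the difference was -0.997; the offset is close in size to the petc values.

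**Figure D1:**
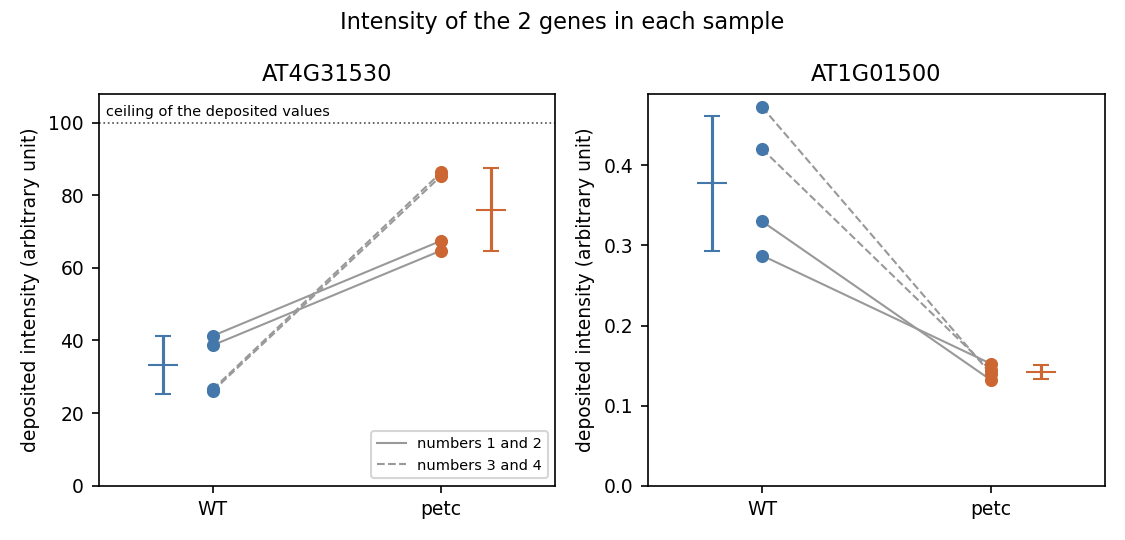
Deposited intensity in arbitrary units of AT4G31530 (left) and AT1G01500 (right) in each WT and petc sample. Points are samples, grey lines join samples of the same number, bars beside the points are mean ± SD (n = 4), and the dotted line is the ceiling of 100. AT4G31530 runs from 26.1 to 41.3 in WT and from 64.8 to 86.3 in petc, and AT1G01500 from 0.287 to 0.473 in WT and from 0.132 to 0.152 in petc.

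Differences of this kind were common on these arrays, and the choice of both genes used this contrast, so nothing is read from their share. In limma, 823 of 2947 probes passed an adjusted p of 0.05 for petc against WT, which is 27.9%, with 12.7% higher and 15.3% lower in petc. Among the 595 single-gene probes tested, the petc difference of AT4G31530 was the 11th highest and that of AT1G01500 the 9th lowest.

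The sets of samples differed in how far petc and WT stood apart. For AT4G31530, the mean deposited intensity was 26.3 in WT numbers 3 and 4, 40.0 in WT numbers 1 and 2, 66.1 in petc numbers 1 and 2 and 85.8 in petc numbers 3 and 4. Neighbours in this order did not overlap. From numbers 1 and 2 to numbers 3 and 4, the normalised log2 value changed by -0.52 in WT and by 0.56 in petc. The first set accordingly had a petc difference of 0.81 and the second set one of 1.89.

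For AT1G01500 the deposited values of the sets were apart in WT and not in petc. Its mean deposited intensity was 0.309 in WT numbers 1 and 2 and 0.447 in WT numbers 3 and 4, without overlap. In petc both sets had a mean deposited intensity of 0.142, and the values of numbers 3 and 4 lay inside the range of numbers 1 and 2. After normalisation, numbers 3 and 4 lay below numbers 1 and 2 in petc, at -2.94 and -2.99 against -2.69 and -2.91. The normalised log2 value thus changed by 0.50 in WT and by -0.16 in petc from the first set to the second. On the normalised log2 scale, petc minus WT came to -1.14 in the first set and -1.81 in the second.

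The change of the petc difference between the sets was fitted in limma as the interaction of genotype and set over all 2947 probes. For AT4G31530 it was 1.08 ± 0.10 on the normalised log2 scale (SE). This is a description with no test, because the gene's values by set were known beforehand, the sets were read from the values, and the error is only the spread inside pairs of close samples that may be technical repeats. AT1G01500 was above the threshold, at -0.66 ± 0.17 (95% interval -1.07 to -0.26, limma adjusted p = 0.221). The same sets and error were used for it, so its interval and p are not read as a test either. In that fit 0.102% of the tested probes were below the threshold, and these 3 were AT4G31530, AT3G07790 and the unnamed probe 2398, the last 2 named after their values were seen. In size the AT4G31530 change ranked 85th of all tested probes and that of AT1G01500 ranked 213th, and the median size over all probes was 0.20.

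The size of the AT4G31530 change depended on the scaling, and it was upward in each alternative run. It was 0.98 as deposited, 0.89 after median centring and 0.83 with the ceiling values left out, and 1.04 to 1.11 without each of the 8 samples in turn. The limma adjusted p, not read as a test, was 0.0405 in this fit, 0.134 with the replicate number as a block at the same change of 1.08, and 0.0907 to 0.212 without each sample. It was above the threshold in 12 alternatives and below it in 4. With the offset of 0.1 it was 0.0121, and with an intensity trend 0.000165. With values above 0 in all 8 samples it was 0.0381, and with at least 2 values per group 0.0418. Quantile normalisation changed the log2 difference within the pairs of this probe from 0.03 to 0 in WT numbers 3 and 4, where both samples had the same rank, from 0.06 to 0.00033 in petc numbers 1 and 2, and from 0.02 to 0.00056 in petc numbers 3 and 4. In WT numbers 1 and 2 it was 0.09 as deposited and 0.10 after normalisation.

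**Figure D2:**
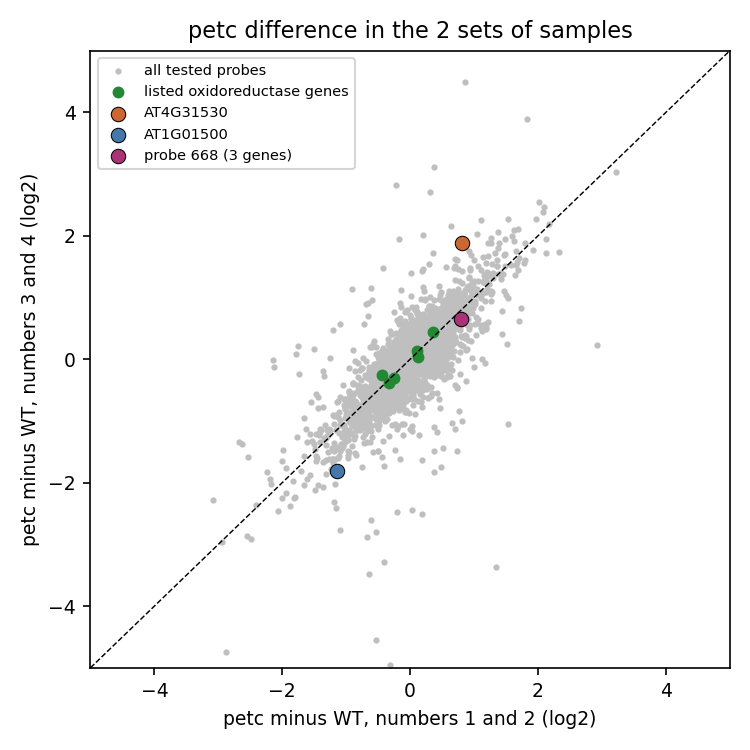
Petc minus WT on the normalised log2 scale in numbers 1 and 2 (x axis) and in numbers 3 and 4 (y axis), with 1 grey point per tested probe and the dashed line marking equal values. AT4G31530 (0.81 and 1.89) lies above the line, AT1G01500 (-1.14 and -1.81) below it, and probe 668 (0.79 and 0.66) near it.

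A second probe bears on AT4G31530 but cannot be named for it. The annotation pairs probe 668 with 3 genes, AT5G02240, AT4G31530 and AT2G37660, so transcripts of any of them may contribute, and their parts were not tested. Its deposited intensity was 0.915, 0.902, 1.03 and 0.905 in WT replicates 1 to 4 and 1.61, 1.63, 1.57 and 1.72 in petc replicates 1 to 4. The groups did not overlap, as for the AT4G31530 probe and for 32.0% of the tested probes. No test is given, because probe 668 may read the same transcripts as the AT4G31530 probe. The difference was 0.72 ± 0.09 on the normalised log2 scale (SE, n = 4 per group). It was of like size in both sets, 0.79 in numbers 1 and 2 and 0.66 in numbers 3 and 4. The change was -0.13, with a 95% interval of -0.46 to 0.20 (limma adjusted p = 0.726). This interval and p rest on the same sets and error as for AT4G31530 and are not read as a test. Whether the change of probe 668 differs from the change of the AT4G31530 probe was not tested. For AT1G01500, 0 probes with several genes were found.

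A gene list and a name search found few other genes of NAD(P)-linked or like-named enzymes on the array. Of 37 listed genes, 4 had a single-gene probe: 0 of 10 in the 2-hydroxyacid dehydrogenase family, to which erythronate-4-phosphate dehydrogenases belong, 1 of 12 plastid relatives of the short-chain dehydrogenases and 3 of 15 plastid enzymes that use NADP. A search of gene synonyms for words such as dehydrogenase or reductase added 4. It can miss genes, since the synonyms of some, such as AT1G01500, hold no enzyme name. AT1G32220, the measured short-chain dehydrogenase relative, was listed at 0 in all 8 samples, and NdhN, a subunit of the chloroplast NADH dehydrogenase-like complex, had too few values above 0 to be tested. That left 6 genes, of which 1 rose, 0 fell and 5 did not pass in limma. The list was drawn up with earlier results of these data known, so these calls are no independent support. NdhS, GLDH and ETFQO came from the name search, which did not ask whether a gene's product uses NAD(P). The gene that rose was among them. With the samples of each set as correlated readings or averaged, 0 of the 6 passed, while 1 and 3 had an unadjusted p below 0.05. Their median difference was -0.10 on the log2 scale, against -0.02 over all tested probes, and 1 of 6 compares with the 27.9% of all probes that passed.

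NdhS, the subunit at which the chloroplast NADH dehydrogenase-like complex binds ferredoxin, was the gene that rose. Its deposited intensity was 3.26 to 3.57 in WT and 5.35 to 5.87 in petc, with no overlap, as for 32.0% of the tested probes. The mean was 3.45 ± 0.131 in WT and 5.56 ± 0.224 in petc (SD, n = 4), a normalised log2 difference of 0.41 ± 0.08 (SE, limma adjusted p = 0.00642). As deposited the difference was 0.69, and after median centring 0.65. The call was lost when samples within each set were treated as correlated readings (limma adjusted p = 0.0754) or averaged (0.0686). Its adjusted p ran from 0.000449 to 0.0754 over 21 alternatives.

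The plastid NADP-linked enzymes did not pass in the reported fit. AT5G58330, the NADP-dependent malate dehydrogenase that exports reducing power from chloroplasts, had 0.239 to 0.377 in WT and 0.200 to 0.285 in petc, overlapping, and a log2 difference of -0.36 ± 0.20 (limma adjusted p = 0.243). It passed in 3 of 21 alternatives, in a range of 0.00908 to 0.485. These were a block on the number (0.00908), the set as a block (0.0148) and numbers 3 and 4 alone (0.0259). AT1G74470, the geranylgeranyl reductase of chlorophyll and tocopherol synthesis, was 1.88 to 2.09 in WT and 2.26 to 2.51 in petc. The groups did not overlap, as for 32.0% of the tested probes, yet its normalised log2 difference was 0.08 ± 0.09 (limma adjusted p = 0.614). It was 0.26 as deposited (limma adjusted p = 0.0490), and the range was 0.0490 to 0.822. NTRC, the plastid thioredoxin reductase fed by NADPH, had 0.13 ± 0.12 (limma adjusted p = 0.50) with overlapping groups.

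The other 2 tested genes are mitochondrial and did not pass either. GLDH, the last enzyme of ascorbate synthesis, had a log2 difference of -0.35 ± 0.18 (limma adjusted p = 0.198) and passed without WT replicate 4 (-0.52, 0.0145), in a range of 0.0145 to 0.634. ETFQO, which passes electrons from amino acid and lipid breakdown to ubiquinone, had -0.28 ± 0.12 (limma adjusted p = 0.132). It passed with a block on the number (0.0173, the lowest of a range up to 0.447) and with the set as a block (0.0268). With either block 3 of the 6 genes passed, 1 higher and 2 lower.

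**Figure D3:**
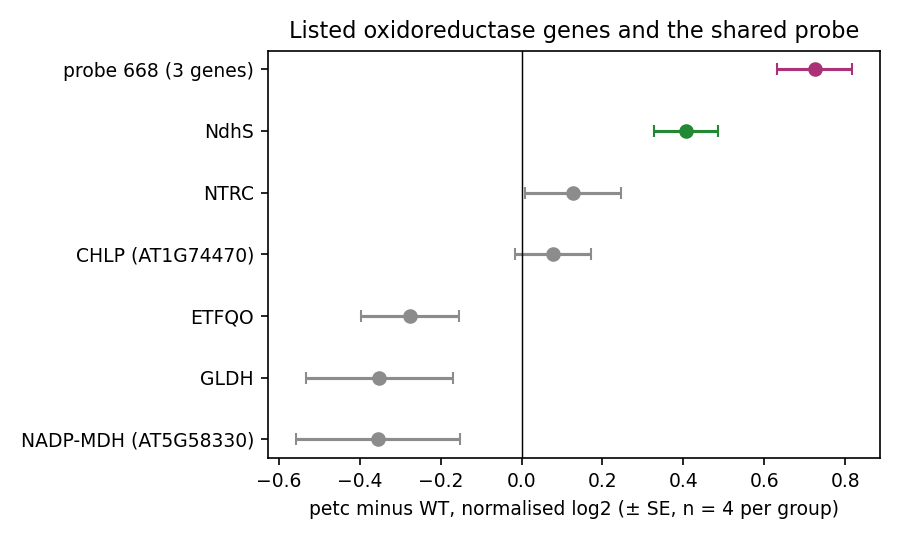
Petc minus WT on the normalised log2 scale (x axis, ± SE, n = 4 per group) for the 6 tested oxidoreductase genes and probe 668. NdhS (0.41, green) passed the threshold, the genes in grey did not, and probe 668 (0.72, purple) is shown with no test. The list was drawn up with earlier results of these data known.

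Across the 8 samples the levels of AT4G31530 and AT1G01500 ran opposite, with Pearson r = -0.975. Both were chosen for petc differences in these samples, 1 up and 1 down, so an opposite course was largely set by the choice. These correlations describe samples that share the group and set structure and the quantile normalisation, and no p is given. Among 586 single-gene probes compared, 23 (3.92%) had r above 0.9 with AT4G31530 and 29 (4.95%) below -0.9, and for AT1G01500 the counts were 37 (6.31%) and 33 (5.63%). Such likeness was thus shared with many genes.

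The genes most like AT4G31530 were CML30, a calmodulin-like calcium sensor gene (r = 0.970), AT3G18870 (0.966), NdhS (0.957), AT2G26110 (0.957) and AT4G25290 (0.952). Their petc differences were 0.86, 0.49, 0.41, 1.19 and 1.29 on the normalised log2 scale, each smaller than that of AT4G31530. The most opposite were AT3G24190 (r = -0.976), AT1G01500 and ATSPS4F, a sucrose-phosphate synthase gene (-0.971). The deposited intensity of ATSPS4F averaged 1.34 ± 0.0760 in WT and 1.17 ± 0.0889 in petc (SD, n = 4), and its log2 difference was -0.27.

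The genes most like AT1G01500 were AT2G36480 (r = 0.982), AT4G03150 (0.981), AT3G50180 (0.979), CCL (0.979) and the MADS-box gene AGL26 (0.976). Their petc differences ranged from -2.13 for AT2G36480 to -0.29 for AGL26. CCL, named for its likeness to CCR, averaged 9.85 ± 2.06 in WT and 5.26 ± 0.0591 in petc as deposited (SD, n = 4), and like AT1G01500 it varied more among the WT samples than among the petc samples. The most opposite were CML30 (r = -0.991), the chromatin remodelling gene chr31 (-0.988) and AT4G25290 (-0.984). CML30 and AT4G25290 appear both among the genes most like AT4G31530 and among those most opposite to AT1G01500. This overlap goes with the opposite course of the 2 members and is no further result.

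**Figure D4:**
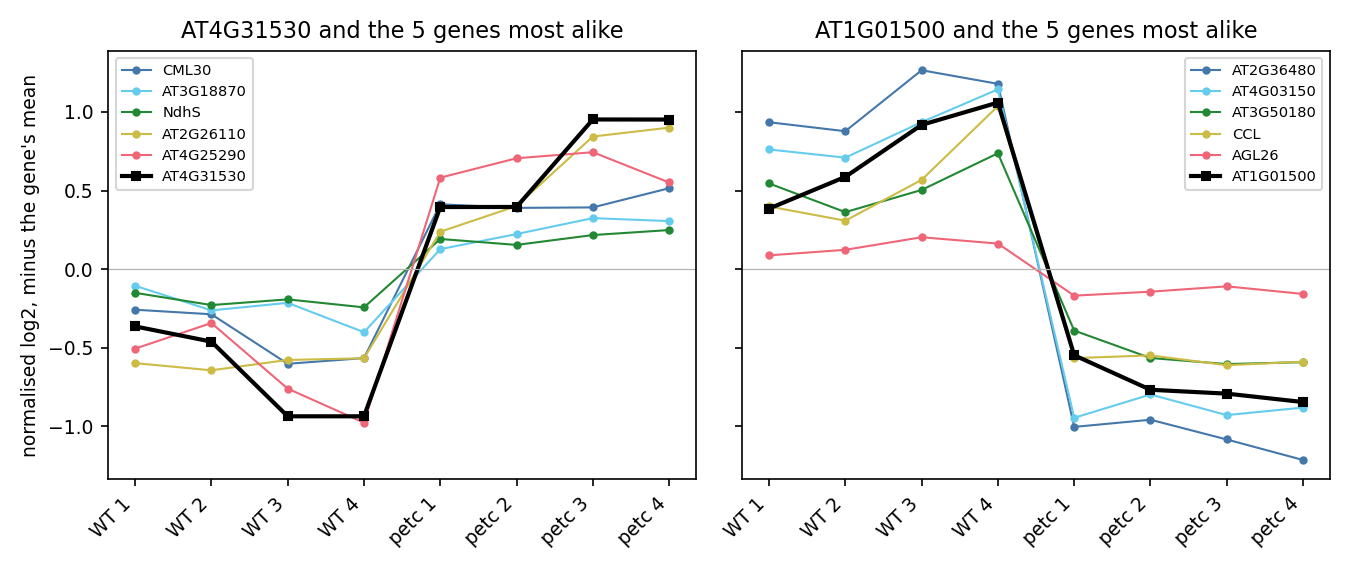
Normalised log2 value minus the gene's mean over 8 samples (y axis) in each sample (x axis) for AT4G31530 (left) and AT1G01500 (right), in black, and the 5 genes with the highest Pearson r to each, in colour. Lines only join the points of a gene, and AT4G31530 has a wider range than each of the 5 genes beside it.

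Genome neighbours gave no values to set beside these. Of the 20 genes that lie within 5 positions of AT4G31530 or AT1G01500, 0 had a single-gene probe and 1 was on a probe with several genes.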

How the data were processed

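Array intensities of 8 samples were used as the authors deposited them, on a linear scale; the labels name no scanner, background correction or scaling. The members and gene lists were chosen with earlier results of these data known. Values of 0 were treated as missing, log2 was taken, and, since column medians differed by up to 0.131, quantile normalisation was applied across arrays. The 2947 probes with 3 or more values per group were fitted with limma 3.58.1 (lmFit, eBayes) in R 4.3.3, with Benjamini-Hochberg adjustment over all of them and a threshold of 0.05. A second fit added the set (numbers 1 and 2 against 3 and 4) and its interaction with genotype. On simulated data with 200 probes changed by 1 on the log2 scale, 91.3% were recovered in the group fit and 60.3% in the interaction fit, with 5.29% and 5.12% of calls false. The simulated samples were independent, with the spread inside pairs and no other difference between sets. In the real data the samples of a pair were correlated (0.674), so the simulated rates do not carry over to the real group fit. Nor do they carry over to the real interaction fit, whose sets were read from the values. Probes were named through the platform annotation (692 with 1 gene, 870 with several, 1877 with none), and 690 of the 692 were found in the RefSeq table of TAIR10.1. No genome build is named, so no coordinates are given. Genes named are the 2 members, all measured list genes, measured genome neighbours, and for each member the 5 most alike and 3 most opposite single-gene probes by Pearson r. Same-numbered samples deviated together (r = 0.542 to 0.623 in all 4 pairs), and the shared split into sets may add to these r values. Each sample's best match in the other group had its own number. The numbers are thus paired from the data and not from a label. The block on the number was an alternative. The number of arrays limits the precision. Figures were drawn with matplotlib 3.10.9.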

Additional observations from a re-analysis of the deposited data

Results flagged for a closer look

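The petc difference of AT4G31530 was 1.08 larger on the log2 scale in numbers 3 and 4 than in numbers 1 and 2 (limma adjusted p = 0.0405). With the replicate block the change was also 1.08, with an adjusted p of 0.134, and in neither fit is it read as a test, since the sets and the gene's values in them were known. Of 42 groups of 4 samples examined, 2 held a sample far from the other 3. For independent samples chance gives about 1 in 20, or 2.1, and samples of a close pair may not be independent. The 2 flagged samples were WT replicate 3 for probe 668 and WT replicate 4 for GLDH. Their normalised log2 values were 0.08 against a median of -0.16 for the rest, and -2.30 against a median of -1.57. No value of AT4G31530 or AT1G01500 stood out in this way. For AT4G31530 the close pairs put the widest gap between the sets in both groups, where this rule cannot flag a sample.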

How the results depend on the processing

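Both genes kept the direction of their petc difference under every alternative tried. AT4G31530 was 0.85 when numbers 1 and 2 were normalised and fitted alone and 1.84 in numbers 3 and 4 alone, and 1.25 to 1.44 without each sample in turn. AT1G01500 was -1.13 and -1.81 in the same sets, and -1.59 to -1.36 without each sample. The count of 823 probes became 1374 with the replicate block, 1358 with the set as a block and 345 with the samples of a set as correlated readings (consensus correlation 0.674), and was 630 to 729 without each sample. As deposited, 448 were higher and 385 lower in petc, against 373 and 450, so that balance turned with the scaling. Of the listed oxidoreductase genes, 1 passed in the reported fit, 2 as deposited, 3 with the replicate block or the set as a block, 2 in numbers 3 and 4 alone and 1 to 2 without each sample. In limma 0 passed with correlated readings and 0 with duplicate means, where 1 and 3 had an unadjusted p below 0.05. The interaction with the set passed for 3 probes (421 at an unadjusted p below 0.05), for 15 with the offset, 38 with an intensity trend, 1 with the ceiling values left out, 0 with the replicate block (529 unadjusted) and 0 to 1 without each sample (limma, 284 to 411 unadjusted). For AT4G31530 the interaction was 0.98 as deposited, 0.89 after median centring, 0.83 without ceiling values and 1.08 with the replicate block, each with an adjusted p above the threshold, and 1.04 to 1.11 without each sample, where fewer samples were fitted. The AT4G31530 adjusted p was above the threshold in 12 alternatives and below it in 4. For AT1G01500 the interaction was -0.77 to -0.56 without each sample and passed in no alternative. The other causes were not tested. With the offset of 0.1, AT1G01500 moved from -1.47 to -0.997 and AT4G31530 from 1.35 to 1.36.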
